A study of Mus musculus with 18 samples.

Results

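Epididymal white adipose tissue (eWAT), a visceral fat depot, was compared between shiftwork and control mice at ZT12, the hour at which the lights go off in the regular cycle. The comparison was chosen by tissue, schedule and time, and it holds 6 of the 18 samples of the series, 3 control and 3 shiftwork libraries. All mice were C57BL/6. Control mice lived in 12 h of light and 12 h of darkness on every day of the 24 weeks. Shiftwork mice had that cycle on 4 days of each week and the reversed cycle on the remaining 3 days, for the same 24 weeks. The labels give no age and no day of the weekly rotation on which tissue was taken, and they do not say whether a library is 1 mouse or a pool, so the p-values measure the spread between these libraries, which may be technical. RNA was sequenced in bulk as single reads of 51 cycles. Of 24091 genes counted, 15141 passed a filter on low counts and were tested. Libraries are called control 1 to 3 and shiftwork 1 to 3, and levels are counts relative to library size (CPM), scaled by the TMM method.

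Fat cells carry their own circadian clock. Arntl and Clock proteins switch on the Per and Cry genes, whose products repress them, and a second loop runs through the Nr1d and Ror receptors. Clock output factors such as Dbp carry the rhythm to metabolic genes. Adipose tissue also holds macrophages, lymphocytes, mast cells, vessels and a mesothelial cover. Interferons reach all of these cells: they act through a complex that holds Stat2 and Irf9 on a short DNA element, the interferon-stimulated response element (ISRE), in front of antiviral and antigen presentation genes.

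The 6 libraries held between 21261798 (shiftwork 2) and 22063227 counts (control 3), so that 3 counts corresponded to 0.134 to 0.142 CPM. Adipocyte genes were abundant in each. Fabp4, a fatty acid carrier, stood at 7635, 7319.6 and 10988 CPM in control 1 to 3 and at 7099, 7015 and 8595 CPM in shiftwork 1 to 3. Adipoq, the hormone adiponectin, ran from 1645 CPM (shiftwork 1) to 3337 CPM (control 3), and Plin1, a lipid droplet coat protein, from 1205 to 1535 CPM. The groups overlapped for all 3 genes.

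Shiftwork 1 and 2 each stood apart from the rest in markers of another tissue or cell state, and shiftwork 3 shared some of those of shiftwork 2. In shiftwork 2 these were intestine genes. Apoa4, an apolipoprotein of small intestine enterocytes, stood at 0.0950, 0.189 and 0.0465 CPM in the control libraries and at 0, 321 and 8.28 CPM in shiftwork 1 to 3. Krt20, an intestinal keratin, stood at 0, 0.0473 and 0 CPM in controls and at 0.0446, 55.8 and 1.42 CPM in shiftwork. Cdh17, the intestinal cadherin, was at 0 in every control library and at 0.223, 37.1 and 1.14 CPM in shiftwork 1 to 3. Shiftwork 2 was high for each of them, and shiftwork 3 held a smaller amount of the same genes. Over 19 intestine markers that were under 1 CPM in each control library and at 10 CPM or more in shiftwork 2, the level in shiftwork 3 was a median of 3.21% of that in shiftwork 2 (range 1.51% to 6.38%). Enterocyte and goblet cell genes (Alpi, Sis, Lct, Fcgbp) were among them. The summed level of the colonocyte list was 77.3 CPM in shiftwork 2 and 53.4 to 89.4 CPM in the controls. The 19 markers were picked for low control levels and the colonocyte list was not, so these are unlike measures. Summed in the same way, the list of intestinal epithelium in all segments gave 470 CPM in shiftwork 2 and 193 to 426 CPM in controls. The part of colon tissue was not tested.

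The other unusual signals lay elsewhere. Summed over 25 cell cycle genes, shiftwork 1 stood at 723 CPM, against 254 and 276 CPM in shiftwork 2 and 3 and 198 to 359 CPM in the controls. Mesothelial markers summed to 456 CPM in shiftwork 1 and to at most 163 CPM in any other of the 6 libraries. Genes listed for lymph node stroma summed to 35.8 CPM in shiftwork 1, 9.77 CPM in shiftwork 2 and at most 2.93 CPM elsewhere. Most of that sum was Cxcl13 alone, whose levels are given below. Spermatid genes summed to 90.2 CPM in shiftwork 1 and to 0.992 to 29.9 CPM in the other 5. Red cell genes (such as Hba-a2, Hbb-bs, Alas2 and Slc4a1) summed to 4098 CPM in shiftwork 2 and 1910 CPM in shiftwork 3, against 785 CPM in shiftwork 1 and 657 to 1106 CPM in controls. Smooth muscle genes summed to 1134 and 1111 CPM in shiftwork 2 and 3 and to 492 to 546 CPM in the other 4. The part of these signals in the schedule comparison was not tested; the values without shiftwork 2 are given beside the results below.

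**Figure D1:**
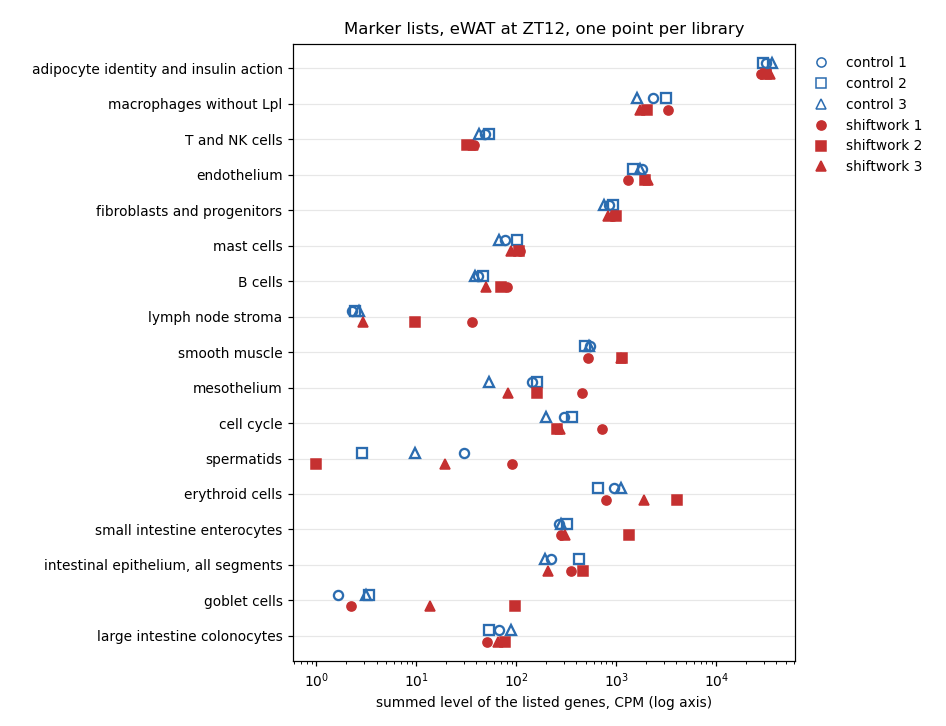
Summed level (CPM, log axis) of each marker list in the 6 eWAT libraries at ZT12, with open blue symbols for control and filled red symbols for shiftwork, and 1 symbol shape per replicate number. The adipocyte list groups tightly and the macrophage list, without Lpl, spreads in both groups, while goblet, enterocyte and erythroid lists are highest in shiftwork 2, cell cycle, mesothelium and lymph node stroma lists in shiftwork 1, and smooth muscle in shiftwork 2 and 3.

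No gene passed the test across all 15141 genes (edgeR quasi-likelihood test on the 12 eWAT libraries of both times, Benjamini-Hochberg adjustment): 0% were called and every adjusted p was 1. At an unadjusted p under 0.05 stood 355 genes (2.34%), of which 242 (1.6%) were higher and 113 (0.746%) lower in shiftwork. In 895 genes (5.91%) every shiftwork library lay above every control library, and in 991 (6.55%) every one lay below. The signs were almost balanced, with 49% of genes positive and 50.9% negative. Without shiftwork 2 the same test also called 0 genes, as did the fit with the replicate number as a block (286 genes, 1.89%, unadjusted) and limma-voom (217 genes, 1.43%, unadjusted).

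DESeq2 called 12 genes on the same 12 libraries (0.0638% of those with an adjusted p, and 533, or 2.83%, at an unadjusted p under 0.05), 11 higher and 1 lower. Apoa1, Apoa4, Cdh17, Krt20, Fcgbp and Cyp3a13 are intestine genes with their highest level in shiftwork 2, and Mgat4c, Cnnm1 and Zfp750 rest on almost no reads at ZT12. Also called were Corin, a protease that activates natriuretic peptide, and Cytl1, a secreted cytokine-like protein. Corin was at 0 in each control library and at 0.0892, 0.661 and 1.18 CPM in shiftwork 1 to 3. Its level in shiftwork 1 lay under that of 3 counts. DESeq2 gave it a log2 difference of 20.7, which rests on the controls at 0, and its unadjusted p by edgeR was 0.111. Without shiftwork 2 DESeq2 called 4 genes (0.0212%; 405, or 2.15%, unadjusted), and 2 of them, Corin and Mgat4c, were among the 12. With only the 6 ZT12 libraries, DESeq2 called 123 genes (0.766%; 83 higher, 40 lower), whereas edgeR called 0 of 14220 and placed 1000 (7.03%) at an unadjusted p under 0.05. Among the 123 were Gdf10, Igf2 and Pdgfrl, the smooth muscle genes Actg2, Cnn1, Tagln, Myl9 and Des, the interferon effectors Oas2 and Parp14, the class I genes B2m, H2-K1 and H2-Q4, the B cell genes Ms4a1, Cd79a and Cd79b, and Dusp1, Klf6, Eln, Col12a1 and Fasn. None of the lists described below is supported by an adjusted p of edgeR, so the values that follow are levels and differences, not calls.

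**Figure D2:**
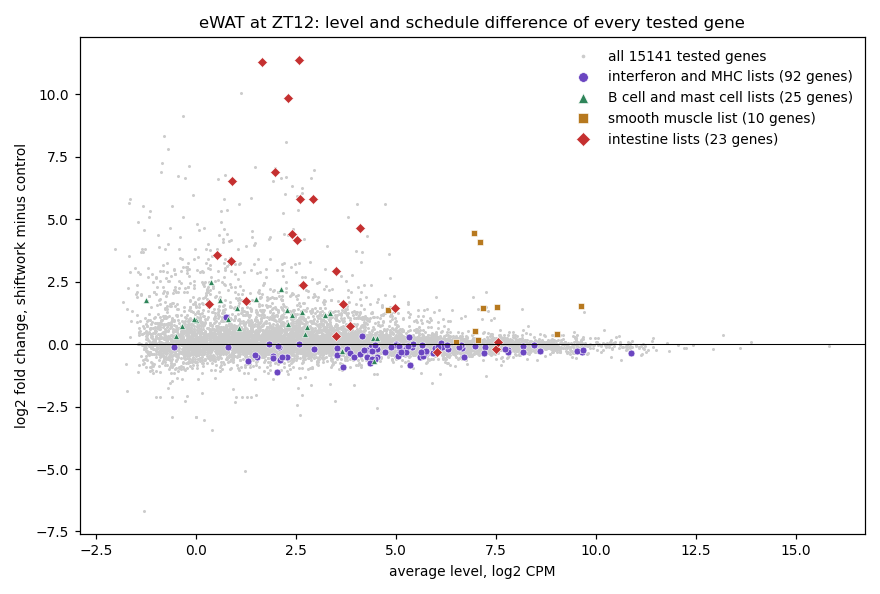
Log2 fold change (shiftwork minus control at ZT12) against average level (log2 CPM) for the 15141 tested genes, with the genes of 4 groups of lists in colour. Interferon and MHC genes lie mostly a little under 0, B cell, mast cell and smooth muscle genes above 0, and intestine genes reach the highest values.

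The genes with the smallest p among those with no overlap between the groups were, on the higher side, Cytl1, Cyp3a13, Pard6g, Gdf10, Igf2, Gata6, Hoxa9, Pdgfrl, Mmp23, Serpinb1a, Fam180a and Tiam2. Gdf10, a ligand of the TGF-beta family, stood at 23.9, 31.2 and 34.6 CPM in control 1 to 3 and at 55.9, 73.7 and 68.9 CPM in shiftwork 1 to 3. Its log2 difference was 1.14 ± 0.27 (SE), with an unadjusted p of 0.00188, and 1.06 without shiftwork 2. Igf2, the fetal growth factor, stood at 9.40, 13.2 and 14.6 CPM against 17.9, 32.6 and 26.5 CPM, a log2 difference of 1.05 ± 0.26. Every shiftwork library was above every control library for both growth factors, and for Gata6, a transcription factor of large peritoneal macrophages and mesothelium (14.8, 13.7 and 11.4 CPM against 30.2, 21.7 and 18.5 CPM).

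Several genes of this set were high in shiftwork 2 and 3 and less so in shiftwork 1, as were the smooth muscle genes. Cytl1 stood at 0.950, 1.51 and 1.26 CPM in controls and at 2.36, 21.7 and 10.1 CPM in shiftwork 1 to 3. Hoxa9, a homeobox gene of posterior tissues, stood at 0.0475, 0.0945 and 0.279 CPM in controls, near or under the level of 3 counts in 2 of them, and at 0.669, 6.52 and 2.84 CPM in shiftwork. Cyp3a13, a cytochrome P450 of the intestine, stood at 0.268, 52.7 and 1.80 CPM in shiftwork, the order of the intestine markers. Pdgfrl, a receptor-like secreted protein, was more even, at 0.570, 0.567 and 0.465 CPM in controls and 2.63, 4.30 and 5.11 CPM in shiftwork.

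On the lower side the rule named, among others, Irgm2, H2-Q7, Stat2, Peg10, Sp100, Parp14, Taf1d, Zbtb21, Nedd4l, Slc1a1 and Shroom4. Peg10, an imprinted gene derived from a retrotransposon, stood at 146, 61.2 and 123 CPM in control 1 to 3 and at 53.3, 57.0 and 34.2 CPM in shiftwork 1 to 3 (log2 difference -1.19 ± 0.34). Irgm2, H2-Q7, Stat2, Sp100 and Parp14 are interferon-inducible. Sp100, a protein of PML nuclear bodies, stood at 120.3, 112 and 105 CPM against 95.2, 79.0 and 80.8 CPM, a log2 difference of -0.40 ± 0.12, and the 3 shiftwork libraries were all lower than the 3 controls.

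In the interferon pathway most effectors lay lower in shiftwork, without passing the test, while several receptors gave differences close to 0. Of 10 listed ligands and receptors, 6 were tested, of which 5 were negative and 1 positive. Ifnar1, a subunit of the type I interferon receptor, stood at 113, 125 and 99.9 CPM in controls and 118, 107 and 104 CPM in shiftwork, a log2 difference of -0.04 (95% interval -0.30 to 0.23). For Ifngr1, a subunit of the interferon gamma receptor, the difference was -0.19 ± 0.21. The groups overlapped for both. The positive gene was Ifnlr1, the receptor of type III interferon, at 0.522, 0.567 and 0.326 CPM against 0.714, 1.42 and 0.899 CPM, with no overlap and a log2 difference of 1.09 ± 1.05. All 11 signalling and transcription factors had a negative difference, with a median of -0.11 (-0.23 without control 3), and 2 of them did not overlap between groups (background 6.55% of all tested genes in that direction). In bulk tissue, fewer cells that express a gene and less of its RNA per cell cannot be told apart.

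Stat2, a member of the complex that binds the ISRE, stood at 70.8, 81.3 and 58.9 CPM in control 1 to 3 and at 52.3, 46.4 and 51.7 CPM in shiftwork 1 to 3. Its log2 difference was -0.49 ± 0.14 (unadjusted p = 0.00575), and -0.43 (unadjusted p = 0.0267) without shiftwork 2. The groups did not overlap, control 3 being the lowest of the controls. Usp18, a negative regulator of the receptor, stood at 5.18, 8.74 and 5.54 CPM against 4.64, 4.72 and 4.16 CPM. Irf9, the DNA-binding member of the complex, overlapped (41.8, 45.4 and 36.0 CPM against 42.4, 33.2 and 30.6 CPM), and Irf1 and Irf8 had differences of -0.03 and -0.01.

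Among 13 sensors of foreign nucleic acid, 12 had a negative difference and 2, Ifih1 and Mavs, did not overlap, against 6.55% of all tested genes. The median was -0.19, with a range of -0.39 (without control 3) to -0.085 (without control 2) when single libraries were left out, and -0.12 without shiftwork 2. Ddx58, which encodes the RNA sensor RIG-I, stood at 65.2, 75.5 and 56.7 CPM in controls and at 57.0, 49.1 and 52.0 CPM in shiftwork, a log2 difference of -0.32 ± 0.13. Ifih1, the sensor MDA5, stood at 61.3, 69.1 and 49.96 CPM against 49.4, 48.2 and 48.4 CPM. Shiftwork libraries were nearly equal for Ifih1, and control 3 was again the control closest to them.

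Of 35 interferon effectors, all tested, 32 had a negative and 3 a positive difference, against 50.9% negative over all genes. In 9 of the 35 every shiftwork library lay below every control library, against 6.55% of all tested genes, and in none was it the reverse. The median was -0.35, against -0.00428 over all tested genes, and -0.37 without shiftwork 2. An unadjusted p under 0.05 was reached by 9 genes, all lower, against 0.746% of all tested genes in that direction. They were Irgm2, Parp14, Oas2, Ifit1, Cmpk2, Ifit2, Igtp, Iigp1 and Mx2. The genes were listed with earlier results of these data in view.

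The effectors with the clearest separation came from different antiviral families. Irgm2, an immunity-related GTPase that guards the membranes of vacuoles, stood at 77.5, 71.6 and 62.6 CPM in control 1 to 3 and 53.9, 41.4 and 52.6 CPM in shiftwork 1 to 3 (log2 difference -0.52 ± 0.12, unadjusted p = 0.00186). Parp14, an ADP-ribosyltransferase, stood at 150.4, 171 and 126 CPM against 108, 104 and 100.2 CPM (-0.52 ± 0.15). Oas2, which makes the second messenger that activates RNase L, stood at 31.1, 35.4 and 33.4 CPM against 24.8, 19.5 and 14.8 CPM (-0.76 ± 0.24). All of the shiftwork values lay below all of the control values for these 3 genes, and Oas2 was lowest in shiftwork 3, Irgm2 in shiftwork 2.

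Ifit2, Cmpk2, Mx2 and Igtp also did not overlap. Ifit2, a binder of viral RNA, stood at 34.9, 33.9 and 26.7 CPM in controls and 22.7, 22.8 and 22.04 CPM in shiftwork (-0.50 ± 0.19). Igtp, a second GTPase of the Irgm family, stood at 36.0, 24.1 and 24.2 CPM against 20.7, 13.6 and 22.2 CPM (-0.57 ± 0.22). Without shiftwork 2 the difference of Igtp was -0.38 (unadjusted p = 0.0978). Ifit1, which binds RNA caps without methyl marks, overlapped: control 3 at 11.2 CPM lay under shiftwork 1 at 13.2 CPM, while control 1 and 2 stood at 19.6 and 31.01 CPM and shiftwork 2 and 3 at 8.59 and 10.5 CPM. Iigp1 overlapped as well, with 83.2, 46.5 and 40.1 CPM in controls and 30.2, 22.05 and 43.8 CPM in shiftwork.

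Not every interferon-inducible gene was lower. Rsad2, the antiviral enzyme viperin, stood at 41.7, 46.2 and 41.4 CPM in controls and at 29.7, 83.1 and 47.1 CPM in shiftwork, with its highest value in the library that holds intestine genes, and its difference was 0.31 with all libraries and -0.16 without shiftwork 2. Isg20, an exonuclease, had the same pattern (17.6, 14.1 and 19.9 CPM against 14.4, 32.1 and 18.7 CPM). Isg15, a ubiquitin-like protein, stood at 4.80, 5.86 and 4.47 CPM against 4.95, 5.34 and 3.59 CPM, and Gbp2 at 177, 166 and 131 CPM against 191, 127 and 136 CPM; neither separated the groups. Oas1a and Oas1g are near-identical copies whose reads can be split between them, so their values are uncertain.

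Promoter sequence was set beside these values, since the listed effectors share a known control element. The ISRE core was searched on both strands, as GAAA, any 2 bases and GAAA again, in RefSeq promoters (build GRCm38.p6; 250 bases before to 50 after each start). It was found in 15 of 27 effectors with a promoter in the table (55.6%) and in 4 of 13 MHC class I genes (30.8%), against 3.86% of the tested genes with a promoter and 1079 of all 27025 genes in the table (3.99%). No gene of 18 from the 3 clock lists held it. Of 15 interferon and MHC class I members with an unadjusted p under 0.05, 10 had a promoter in the table. The element was found in 7 of these 10. For 6 of the 7, its place before the start is given below. Its place in the remaining member, before or after the start, is not given here. A match describes the letters and is no evidence of a bound factor. Stretches of 100 bases that end before the start are shown for these 6, 5′ to 3′ on the strand of the gene, with the ISRE core (on either strand) in capitals, because they hold the element that these members share.
B2m (chr2:122147503-122147602, + strand): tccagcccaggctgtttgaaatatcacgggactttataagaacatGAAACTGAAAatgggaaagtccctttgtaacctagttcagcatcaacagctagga
Cxcl10 (chr5:92349040-92349139, - strand): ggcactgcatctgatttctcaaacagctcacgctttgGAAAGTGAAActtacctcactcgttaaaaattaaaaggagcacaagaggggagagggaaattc
Ifit1 (chr19:34640749-34640848, + strand): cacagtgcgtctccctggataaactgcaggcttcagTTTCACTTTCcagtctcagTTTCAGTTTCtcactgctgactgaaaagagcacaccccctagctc
Igtp (chr11:58199456-58199555, + strand): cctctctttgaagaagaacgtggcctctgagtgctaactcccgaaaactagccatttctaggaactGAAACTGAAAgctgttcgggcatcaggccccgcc
Irgm2 (chr11:58214868-58214967, + strand): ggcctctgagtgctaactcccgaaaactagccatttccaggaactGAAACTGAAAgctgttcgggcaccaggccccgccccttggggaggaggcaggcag
Stat2 (chr10:128270248-128270347, + strand): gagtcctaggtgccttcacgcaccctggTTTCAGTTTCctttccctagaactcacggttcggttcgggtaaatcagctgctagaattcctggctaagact
Ifit1 holds 2 copies, which begin 104 and 85 bases before its start. The single copies of Igtp and Irgm2 begin 34 and 64 bases before the RefSeq starts at 58199556 and 58214977 on chromosome 11. The annotation used for the counts gives Irgm2 the same start as Igtp, 58199556, and an end at 58222783, so the spans overlap and the counts of Igtp and Irgm2 are uncertain. In Stat2, Cxcl10 and B2m the core begins 222, 213 and 139 bases before the RefSeq start, which for Stat2 lies at 128270498, before the start of 128270576 used for the counts.

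Cxcl10, which draws T cells, stood at 7.36, 6.76 and 3.07 CPM in control 1 to 3 and at 3.12, 1.98 and 2.74 CPM in shiftwork 1 to 3, a log2 difference of -1.13 ± 0.50 (unadjusted p = 0.0475). Control 3 overlapped the shiftwork libraries. All 4 tested genes of the list (Cxcl10, Cxcl9, Ccl5, Cxcr3) had a negative difference and none separated the groups.

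**Figure D3:**
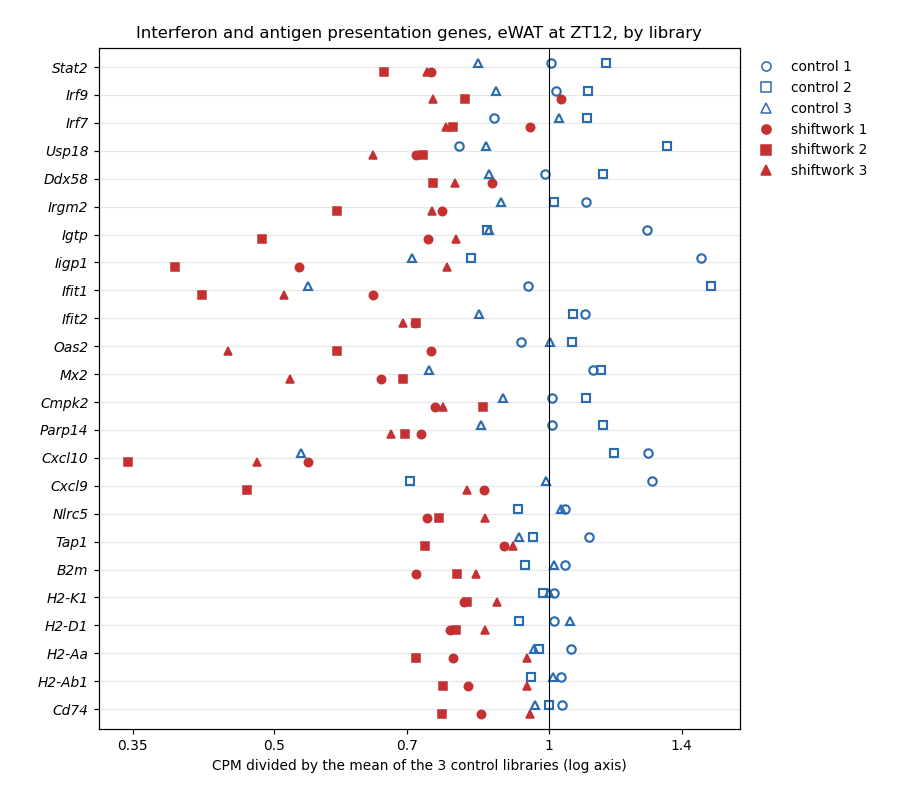
Level of 24 interferon and antigen presentation genes in each eWAT library at ZT12, as CPM divided by the mean of the 3 controls (log axis), with open blue symbols for control and filled red for shiftwork. Most red symbols lie left of 1, and control 3 is the control nearest to shiftwork for Stat2, Ifit1 and Cxcl10.

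Antigen presentation genes showed smaller but even differences. Of 16 MHC class I and immunoproteasome genes, 15 had a negative difference, against 50.9% of all tested genes. In 7 of them the groups did not overlap (H2-Q4, Nlrc5, B2m, Tap1, H2-D1, H2-K1 and Tap2), against 6.55% of all tested genes in that direction. The median was -0.19 with and -0.14 without shiftwork 2. B2m, the invariant chain of class I molecules, stood at 2650.1, 2395 and 2577 CPM in control 1 to 3 and at 1818, 2018 and 2113 CPM in shiftwork 1 to 3 (log2 difference -0.36 ± 0.16, unadjusted p = 0.0481). Nlrc5, the transactivator of class I genes, stood at 67.6, 60.0 and 66.8 CPM against 47.7, 49.1 and 55.3 CPM (-0.35 ± 0.15). H2-Q4, a class Ib gene, stood at 90.5, 92.4 and 87.4 CPM against 71.6, 64.9 and 72.8 CPM (-0.37 ± 0.12). Every shiftwork library was under every control for these 3 genes. The immunoproteasome subunits Psmb8 and Psmb9 overlapped, with shiftwork 1 at the control level (55.4 CPM for Psmb8 against 50.1 to 55.3 CPM).

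The class I genes H2-K1, H2-D1, H2-Q4 and H2-Q7 are close copies of each other, and reads can be split between them, so a difference of 1 of them is uncertain. Per length, in the authors' FPKM, the control means were 2172 for B2m, 436 for H2-D1, 327 for H2-K1 and 36.9 for H2-Q4. All 7 MHC class II genes had a negative difference (median -0.23), against 50.9% of all tested genes. Of them 3 did not overlap, against 6.55% of all tested genes in that direction. H2-Aa, a class II alpha chain, stood at 576, 531 and 525 CPM in controls and 428, 389 and 516 CPM in shiftwork, so that shiftwork 3 was only just under control 3. Cd74, the invariant chain of class II, stood at 1144, 1107 and 1069.5 CPM against 933, 847 and 1057 CPM, and Ciita, the class II transactivator, overlapped (32.8, 29.6 and 21.4 CPM against 26.8, 20.02 and 29.7 CPM).

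Markers of the cells that carry class II molecules did not move with it in 1 direction. Of 21 macrophage genes, 11 had a positive and 10 a negative difference, and no gene separated the groups. The member Lpl, lipoprotein lipase, is also an abundant adipocyte gene (13114 to 15874 CPM) and made up most of the list's sum. Without Lpl the sum was 2330.5, 3175 and 1607 CPM in control 1 to 3 and 3289, 2042 and 1732 CPM in shiftwork 1 to 3. The libraries thus spread widely within each group, as they did for Adgre1, the antigen F4/80 (116, 174 and 70.1 CPM against 160.1, 90.1 and 86.4 CPM). B cell markers were higher: all 12 had a positive difference with a median of 1.27 (1.02 without shiftwork 2), and 8 did not overlap between the groups, against 5.91% of all genes in that direction. Summed, they stood at 41.03, 46.3 and 38.8 CPM in control 1 to 3 and 81.6, 70.7 and 49.4 CPM in shiftwork 1 to 3. Ms4a1, the antigen CD20, stood at 0.997, 0.756 and 1.07 CPM against 5.53, 4.72 and 2.89 CPM, a log2 difference of 2.21 ± 0.79 (unadjusted p = 0.0188). Cd79a, a signalling chain of the antigen receptor, was measured at 0.855, 0.614 and 0.977 CPM against 3.08, 3.82 and 1.80 CPM (1.82 ± 0.75).

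Follicle genes accompanied the B cell genes. Cr2, the complement receptor of B cells and follicular dendritic cells, stood at 0.142, 0.0945 and 0.326 CPM in controls, near the level of 3 counts, and at 1.78, 1.09 and 0.378 CPM in shiftwork 1 to 3. Cxcl13, the chemokine of B cell follicles, stood at 2.14, 2.32 and 2.19 CPM in controls and at 33.7, 7.70 and 1.66 CPM in shiftwork, so shiftwork 3 was the lowest of all 6. Fat depots can hold small lymph nodes and lymphoid clusters, and the part of such tissue in the B cell values was not tested. Jchain, the joining chain of secreted antibodies, lay the other way (25.4, 22.3 and 20.6 CPM against 13.7, 6.75 and 17.4 CPM), and of 8 plasma cell genes 5 were positive and 3 negative. T and NK cell genes summed to 42.1 to 53.1 CPM in controls and 32.4 to 37.9 CPM in shiftwork, with 8 of 13 negative. Only Klrb1c, an NK receptor, was without overlap, and lower, against 6.55% of all tested genes in that direction.

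Mast cell proteases were higher in shiftwork. Of 13 mast cell genes, 11 had a positive difference (median 0.82, and 1.08 without shiftwork 2), 3 without overlap, and 5 reached an unadjusted p under 0.05, against 5.91% and 1.6% of all tested genes in that direction. Without control 2 the median was 1.47. Cma1, a chymase, stood at 2.14, 5.44 and 2.23 CPM in control 1 to 3 and at 10.9, 6.09 and 6.91 CPM in shiftwork 1 to 3 (log2 difference 1.29 ± 0.42). Tpsb2, a tryptase, stood at 3.66, 7.52 and 4.09 CPM against 13.3, 12.5 and 8.56 CPM (1.17 ± 0.40), and Cpa3, carboxypeptidase A3, overlapped because control 2 at 9.22 CPM lay over shiftwork 3 at 8.18 CPM. Control 2 was the highest control for each of these proteases. Kit, the stem cell factor receptor that mast cells carry, had a difference of -0.68 ± 0.34, so not all members of the list had the same sign. Tpsab1 and Tpsb2 are related copies.

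No clock gene passed the test at this hour. Over the 3 clock lists 22 of 23 genes were tested and none had an unadjusted p under 0.05 in the fit of 12 libraries. With the 6 ZT12 libraries alone 5 had one (Arntl, Npas2, Per1, Per2 and Nampt), against 7.03% of all genes, and in the fit with the replicate block 1 had one, Per1 (unadjusted p = 0.0436), against 1.89%. All 5 tested activators had a positive difference (median 0.36, and 0.20 without shiftwork 2), 7 of 10 repressors a negative one (median -0.20, and -0.12 without shiftwork 1), and all 7 output factors a negative one (median -0.17). The groups were separate for 7 genes: 2 activators above and 3 repressors and 2 output factors below, where 5.91% of all tested genes lay above and 6.55% below.

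Arntl, the core activator also called Bmal1, stood at 4.89, 5.58 and 4.56 CPM in control 1 to 3 and 9.15, 6.99 and 8.80 CPM in shiftwork 1 to 3. Its log2 difference was 0.73 ± 0.44 (unadjusted p = 0.128, and 0.00244 with an adjusted p of 0.468 on the 6 ZT12 libraries by edgeR). Npas2, which can replace Clock, stood at 0.380, 0.331 and 0.326 CPM against 0.580, 1.27 and 0.709 CPM, a log2 difference of 1.29 ± 0.92 (0.89 without shiftwork 2). In both genes all shiftwork libraries lay above all controls, whereas Clock itself overlapped (111, 122 and 97.2 CPM against 121, 122 and 118 CPM).

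Per1, a repressor that also answers to glucocorticoids, stood at 99.4, 139.6 and 174 CPM in controls and at 88.6, 91.7 and 96.8 CPM in shiftwork (-0.57 ± 0.27, unadjusted p = 0.062). The controls spread widely for Per1 and the shiftwork libraries did not. Per2 stood at 81.8, 79.0 and 99.2 CPM against 49.6, 79.3 and 41.1 CPM: shiftwork 2 lay at the control level, and without it the difference was -0.93 (unadjusted p = 0.00825) in place of -0.61. Nr1d2, which encodes the repressor REV-ERB beta, stood at 90.4, 104 and 89.0 CPM against 66.1, 81.7 and 86.7 CPM, and Ciart, another repressor, at 2.99, 3.21 and 2.61 CPM against 1.56, 2.03 and 2.55 CPM. Nr1d1, the partner of Nr1d2, differed between shiftwork libraries (78.6, 91.9 and 168 CPM against 80.7 to 84.5 CPM in controls), and Cry2 had a difference of -0.01 ± 0.22.

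Among the output factors, Dbp, which binds the D-box, stood at 78.4, 71.0 and 76.0 CPM in controls and 65.0, 68.8 and 66.6 CPM in shiftwork, a log2 difference of -0.17 ± 0.48. The groups did not overlap although the interval ran from -1.24 to 0.90, and the fit also takes its spread from the ZT3 libraries, where Dbp ran from 10.6 to 96.97 CPM. Nampt, the enzyme of NAD synthesis, stood at 163, 176 and 188 CPM against 145, 162 and 131 CPM.

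The E-box CACGTG, the element that Arntl and Clock bind, was searched in the same promoters and found in 5 of 18 clock genes (27.8%), against 11.2% of the tested genes with a promoter and 8.09% of all 27025. Of the clock genes whose groups did not overlap, Ciart and Per1 held it before the start, and 100 bases of each are shown with the E-box in capitals.
Ciart (chr3:95882256-95882355, - strand): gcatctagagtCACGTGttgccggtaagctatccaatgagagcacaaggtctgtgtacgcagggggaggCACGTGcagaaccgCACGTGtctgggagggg
Per1 (chr11:69098736-69098835, + strand): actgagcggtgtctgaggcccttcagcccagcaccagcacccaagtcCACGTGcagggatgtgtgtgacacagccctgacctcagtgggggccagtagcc
Ciart holds 3 copies, which begin 116, 58 and 44 bases before the start, and Per1 holds 1 copy, 166 bases before a RefSeq start at 69098949. That start of Per1 lies inside the gene as annotated for the counts, which begins at 69095254.

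**Figure D4:**
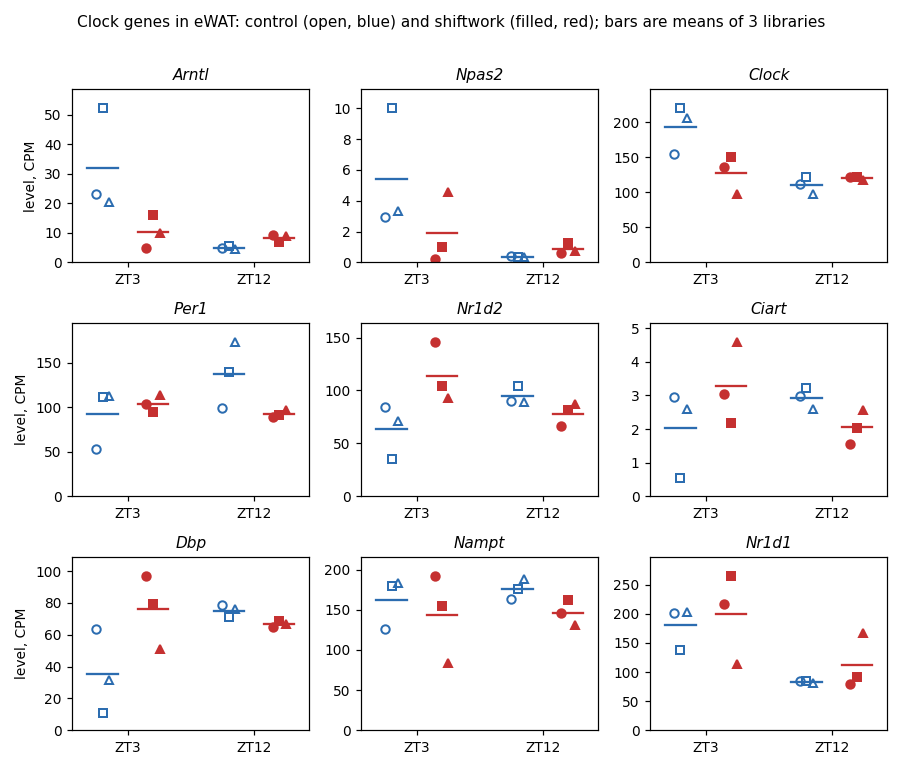
Level (CPM) of 9 clock genes in the control (open blue) and shiftwork (filled red) eWAT libraries at ZT3 and ZT12, with a bar at the mean of each 3. For Arntl and Dbp the libraries of each group lie closer together at ZT12 than at ZT3, and the order of the group means is reversed between the times.

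The schedule difference at ZT12 was set against that at ZT3 in the same fit, with the difference between them (interaction) as the test. No gene passed by edgeR (0% of 15141, smallest adjusted p 0.372; 1535 genes, 10.1%, at an unadjusted p under 0.05), and DESeq2 called 192 of 14230 (1.35%). Over all genes 57.1% of these differences were negative. The ZT3 libraries hold other tissue: genes of vas deferens and epididymis summed to between 1.99 and 11992 CPM and spermatid genes to between 1.22 and 6786 CPM, against at most 4.95 and 90.2 CPM at ZT12. The part of that tissue in the differences between the times was not tested. For the interferon effectors 31 of 35 were negative, with a median of -0.70. Irgm2 stood at 31.2 to 32.4 CPM in ZT3 controls and 38.8 to 45.7 CPM in ZT3 shiftwork, the opposite order to ZT12, and the difference between the times was -0.93 ± 0.17 (unadjusted p = 0.000333). H2-Q4 gave -0.93 ± 0.17 as well, from 29.6 to 37.4 CPM in ZT3 controls and 43.3 to 55.8 CPM in ZT3 shiftwork. In both genes all ZT3 shiftwork libraries were above all ZT3 controls.

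Arntl ran the other way. In ZT3 controls it stood at 23.3, 52.4 and 20.3 CPM and in ZT3 shiftwork at 4.84, 15.99 and 9.89 CPM, and the difference between the times was 2.37 ± 0.62 (unadjusted p = 0.00353). All 12 B cell genes also had a positive difference between the times (median 2.45). Ms4a1 stood at 6.35, 8.91 and 10.01 CPM in ZT3 controls and 1.57, 0.535 and 8.10 CPM in ZT3 shiftwork, so its level in ZT12 controls was lower than in any ZT3 control. The mast cell protease Cma1 stood at 8.91 to 10.8 CPM in ZT3 controls and 2.19 to 4.60 CPM in ZT3 shiftwork, against the reverse order at ZT12, with a difference of 2.79 ± 0.60 (unadjusted p = 0.000871).

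Genes that answer to glucocorticoids, hormones that peak near lights-off in mice, all had a negative difference at ZT12. These were 13 of 13, against 50.9% of all tested genes, with a median of -0.36. None of them had an unadjusted p under 0.05 in the fit of 12 libraries. The median was -0.14 without control 3 and -0.53 without control 1, the range over leaving out single libraries. Only Per1 and Sgk1 separated the groups, both lower, against 6.55% of all tested genes in that direction. Sgk1, a kinase of sodium and glucose handling, stood at 66.4, 75.6 and 81.6 CPM in control 1 to 3 and 46.5, 62.6 and 62.5 CPM in shiftwork 1 to 3 (-0.38 ± 0.26). Tsc22d3, which encodes GILZ, stood at 296, 371 and 476 CPM against 254, 344 and 255 CPM, and Fkbp5, a chaperone of the receptor, at 89.4, 99.4 and 185 CPM against 85.8, 140.0 and 65.6 CPM. Control 3 was the highest of the 6 for Tsc22d3 and Fkbp5, and for Per1.

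Immediate early genes, which cells switch on within minutes of a stimulus, split: 14 of 24 were positive and 10 negative, and 5 were lower without overlap (Jun, Dusp1, Klf6, Klf2 and Zfp36), against 6.55% of all tested genes. Without shiftwork 2 the split was 11 positive and 13 negative, and the median went from 0.08 to -0.02. Dusp1, a phosphatase of MAP kinases, stood at 93.2, 104 and 93.4 CPM in controls and 55.1, 72.5 and 64.9 CPM in shiftwork (-0.59 ± 0.21, unadjusted p = 0.0169). Jun, a subunit of AP-1, stood at 72.4, 74.8 and 82.2 CPM against 53.8, 68.1 and 57.3 CPM (-0.36 ± 0.12). Both separated the groups, while the orphan receptor gene Nr4a1 was high in shiftwork 2 and 3 only (8.57, 20.2 and 17.7 CPM against 5.81 to 8.79 CPM in controls). Of 15 heat shock and cold-inducible genes, 12 were negative and 4 were lower without overlap, against 6.55% of all tested genes in that direction. Hspb1, a small heat shock protein, was among the 4 (21.2, 22.4 and 19.6 CPM against 17.0, 18.8 and 15.6 CPM).

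Lists of adipocyte metabolism had small median differences at ZT12, and edgeR called none of their members. Of 16 genes of adipocyte identity and insulin action, 12 were negative and none separated the groups. In lipolysis and the lipid droplet, 14 of 17 were negative (median -0.19, and -0.081 without control 3). Only Adrb1, a beta-adrenergic receptor, did not overlap (10.3, 6.62 and 7.95 CPM against 6.25, 4.96 and 4.49 CPM), against 6.55% of all tested genes in that direction. The lipases Pnpla2 and Lipe had differences of -0.18 and -0.08. In fatty acid synthesis 12 of 20 were positive (median 0.07, and 0.02 without shiftwork 1). Fasn, fatty acid synthase, stood at 6189, 6749 and 5569 CPM in controls and 8021, 8301 and 7771 CPM in shiftwork, without overlap, a log2 difference of 0.38 ± 0.63. Me1, malic enzyme, which supplies NADPH, also separated (636, 702 and 668 CPM against 836, 771 and 802 CPM). These 2 of the 20 were higher without overlap, against 5.91% of all tested genes in that direction. In the ZT3 libraries, which enter the same errors, Fasn ran from 1709 to 23848 CPM.

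Of 11 tested adipokine genes 5 had a positive and 6 a negative difference, and none had an unadjusted p under 0.05. Lep, Nampt and Rarres2, 3 of the 11, were lower without overlap, against 6.55% of all tested genes. Lep, the satiety hormone leptin, stood at 4967, 5445 and 4378 CPM in control 1 to 3 and 4186, 4186 and 3953 CPM in shiftwork 1 to 3, a log2 difference of -0.26 ± 0.31. Rarres2, the chemokine chemerin, stood at 364, 371 and 402 CPM against 338, 345 and 340.4 CPM. Retn and Cfd, which encode resistin and adipsin, overlapped. Oxidative phosphorylation genes were close to level, with 31 of 36 positive and a median of 0.04 (-0.01 without control 2). Ribosomal protein genes were positive in 52 of 58 (median 0.17, and 0.04 without shiftwork 1), and their sum was 4273 CPM in shiftwork 1, against 3294 and 3162 CPM in shiftwork 2 and 3 and 2927 to 3430 CPM in controls. Shiftwork 1 was the 1 library above the controls' range.

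**Figure D5:**
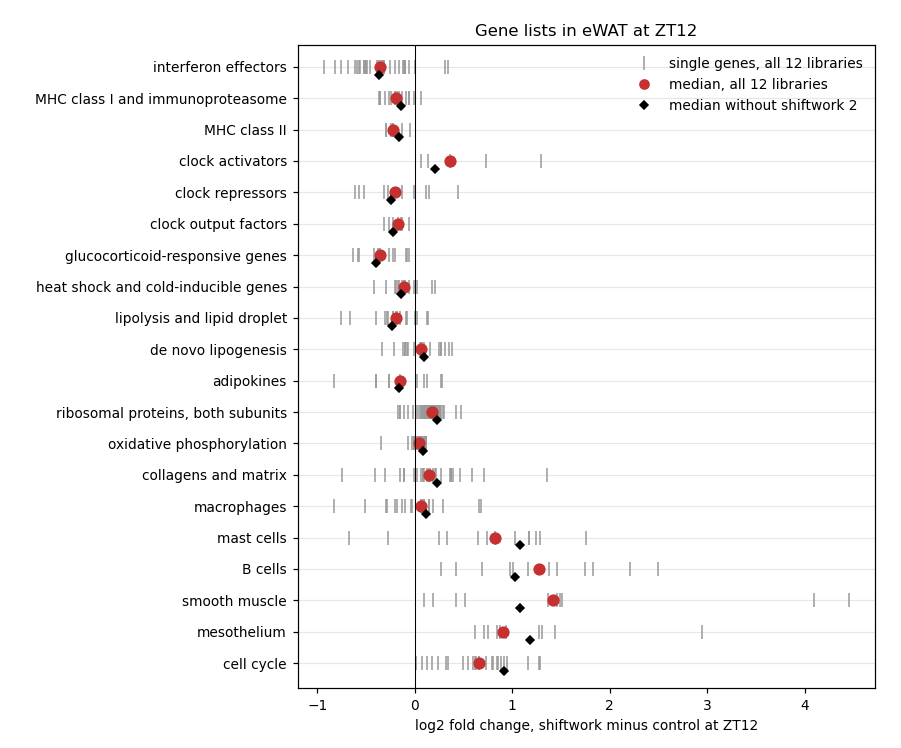
Log2 fold change (shiftwork minus control at ZT12) of each tested gene in 20 lists (grey ticks), with the median over all libraries (red) and without shiftwork 2 (black). Interferon, MHC and glucocorticoid lists lie left of 0, B cell, mast cell, smooth muscle and mesothelium lists to the right, and the sign of no median shown depends on shiftwork 2. Leaving out another single library changed the sign for macrophages (range -0.30 to 0.27), adipokines (-0.18 to 0.056), cell cycle (-0.10 to 0.92) and oxidative phosphorylation (-0.011 to 0.14).

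In the connective tissue, 21 of 28 collagen and matrix genes were positive (median 0.15, and 0.055 without control 3). Without overlap 3 of 28 were higher and 2 lower, against 5.91% and 6.55% of all tested genes. Eln, elastin, stood at 59.6, 62.4 and 62.3 CPM in control 1 to 3 and 82.4, 117 and 102 CPM in shiftwork 1 to 3 (log2 difference 0.71 ± 0.22, unadjusted p = 0.00935, and 0.59 without shiftwork 2). Col1a1, a chain of fibrillar collagen, stood at 518, 563 and 414 CPM against 761, 568 and 594 CPM, with shiftwork 2 only just above control 2. Col12a1, a collagen that decorates fibrils, lay lower (95.5, 111 and 85.0 CPM against 46.2, 65.9 and 62.2 CPM). Of 12 fibroblast and progenitor genes, 9 were positive and 3 negative, with a median of 0.18. Without overlap 3 were higher and 1 lower, against 5.91% and 6.55% of all tested genes. Among the higher members, Cd34, a surface protein of adipose progenitors and endothelium, stood at 163, 194 and 155 CPM against 269, 203 and 203 CPM (0.40 ± 0.16). Clec11a, a secreted growth factor of stromal cells, stood at 2.37, 2.27 and 1.3 CPM against 8.43, 3.92 and 4.35 CPM.

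All 10 smooth muscle genes were positive, against 49% of all tested genes, with a median of 1.42 (1.08 without shiftwork 2). Of these, 5 did not overlap (Cnn1, Actg2, Tagln, Myl9 and Des), against 5.91% of all tested genes in that direction. Cnn1, calponin, stood at 0.427, 0.662 and 0.512 CPM in control 1 to 3 and 3.52, 16.9 and 14.9 CPM in shiftwork 1 to 3. Actg2, the gamma actin of visceral muscle, stood at 1.04, 0.378 and 0.558 CPM against 5.09, 14.2 and 14.8 CPM. Myh11, the heavy chain of smooth muscle myosin, was at the control level in shiftwork 1 (69.1 CPM against 58.9 to 74.5 CPM) and at 267 and 248 CPM in shiftwork 2 and 3. The signal of this list was thus large in shiftwork 2 and 3 and partial in shiftwork 1.

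In the ZT3 libraries, whose spread enters the fit, Actg2 stood at 739 and 780.2 CPM in 2 ZT3 control libraries and at 0.665 to 71.7 CPM in the other 4 ZT3 libraries, and its unadjusted p at ZT12 was 0.0858. With the 6 ZT12 libraries alone it was 0.000155 by edgeR, with an adjusted p of 0.362. DESeq2 on the same 6 libraries called Actg2 (adjusted p = 3.12e-11), Cnn1 (adjusted p = 1.16e-10), Tagln, Myl9 and Des. Tpm2, a tropomyosin, was likewise high in these libraries (15.8, 14.5 and 16.7 CPM against 32.6, 52.8 and 45.8 CPM, and 675 and 897 CPM in the same ZT3 controls). Intestine genes were also high in shiftwork 2, and shiftwork 3 held them at a median of 3.21% of that level, while the smooth muscle sums of shiftwork 2 and 3 were 1134 and 1111 CPM. The part of intestine tissue in the smooth muscle values was not tested.

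Some single vessel markers were high in the same libraries. Vwf, von Willebrand factor of endothelium, stood at 117, 127 and 106 CPM in controls and 96.8, 311 and 289 CPM in shiftwork 1 to 3. Prox1, the lymphatic endothelial regulator, stood at 0.285, 0.614 and 0 CPM against 0.402, 4.25 and 3.97 CPM. Both were high in shiftwork 2 and 3 and at the control level in shiftwork 1. In the Schwann cell and neuron list 5 of 7 tested genes were positive, and the median was 1.02 (0.58 without shiftwork 2). An unadjusted p under 0.05 was reached by 2, both higher, against 1.6% of all tested genes. With the replicate block, or with the 6 ZT12 libraries alone, none reached it. The 11 listed genes summed to 107, 101 and 80.9 CPM in control 1 to 3. Shiftwork 1 to 3 gave sums of 86.6, 89.1 and 88.0 CPM. The endothelial genes Pecam1 and Tek had differences of 0.07 and 0.00.

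Proliferation genes were all positive, 25 of 25 with a median of 0.65, yet this rested on shiftwork 1: without it the median was -0.10. Mki67, the proliferation antigen Ki-67, stood at 57.0, 66.1 and 30.4 CPM in controls and 141, 47.9 and 47.6 CPM in shiftwork 1 to 3. Only Ube2c and Nusap1, which act in mitosis, separated the groups, both higher, against 5.91% of all tested genes in that direction. Mesothelial genes were positive in 10 of 10 (median 0.90, and 0.24 without shiftwork 1), with Upk3b, a uroplakin of mesothelium, at 37.5, 49.7 and 13.96 CPM against 135, 38.8 and 19.2 CPM. Nkain4 was the 1 mesothelial gene of 10 whose groups did not overlap (6.17, 5.53 and 3.44 CPM against 21.6, 9.40 and 6.29 CPM). The share over all tested genes in that direction was 5.91%.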

How the data were processed

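Whole-gene read counts and log2 FPKM values of epididymal fat were deposited by the authors. Per the submitters' processing notes, tools include edgeR, limma, DESeq2, HTSeq and STAR and the build is mm10 (GRCm38); they give no versions or roles and do not say whether counting used strand. FPKM (a level scaled by transcript length and depth) was used from the deposited log2 values, for levels compared between genes and for 1 alternative test. Counts of all 12 epididymal libraries (3 for each schedule and time) were filtered with filterByExpr, scaled by TMM and tested with edgeR 4.0.16 (robust quasi-likelihood, R 4.3.3, limma 3.58.1), with 1 mean per group and Benjamini-Hochberg adjustment over 15141 genes at 0.05. Single p-values printed as unadjusted, the standard errors (SE) and the 95% intervals come from this fit. DESeq2 1.42.0 and the other alternatives are in the closing section. The procedure was tested on simulated data.

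No 2 libraries of a group agreed within sampling noise (chi-square per gene 19.22 or more), so none is a copy of another in its group. That check cannot tell separate mice from separate preparations of a pool. Each library was counted as a replicate. Deviations from the group mean were correlated between libraries with the same replicate number (0.31, 0.13 and 0.20 over genes). Shiftwork 2 and control 3, of different numbers, gave 0.12, and the other pairs of different numbers were negative. Deviations within a group are tied to each other, so these correlations cannot show pairing. The numbers were treated as pairs in an alternative fit only. Genes were named by rule: the 12 with the smallest p in each direction among genes with an average log2 CPM of at least 1 and no overlap between groups (predicted genes, Riken clones and antibody segments left out), all clock genes, interferon members with an unadjusted p under 0.05, up to 4 members of any list with at least 3 such genes, and cell type markers above 1 CPM. Other genes named from the stress, glucocorticoid, metabolic, matrix and antigen presentation lists, and further interferon members, were chosen after their values were seen. Members and lists were chosen with earlier results of these data known, so their counts are descriptions. Mitochondrially encoded genes and immunoglobulin constant genes were not analysed here. A few further genes are not reported here.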

Additional observations from a re-analysis of the deposited data

How the results depend on the processing

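No gene was called by edgeR under another scaling, without the filter, with the 6 ZT12 libraries alone, by limma on counts or FPKM, or without any single library. The fit with the replicate number as a block also called 0 genes and changed no call. DESeq2 called 12 genes, 4 without shiftwork 2 and 123 on the 6 ZT12 libraries; the last 2 settings, and the macrophage list without Lpl, were chosen after seeing the data. Of 1720 alternative values for 83 named genes, 1684 kept direction and side of the threshold, 23 passed it under DESeq2 settings and 13, in 7 genes, changed sign; the cause was not tested. Rora gave -0.047 and Mttp -0.22 under DESeq2 without shiftwork 2, and Cry2 gave 0.00696 on the 6 ZT12 libraries. With 1 replicate left out, the range was -0.24 to 0.62 for Bhlhe40, -0.056 to 0.31 for Bhlhe41, -0.090 to 0.11 for Cry2, -0.21 to 2.05 for Mttp, -0.19 to 0.15 for Nfil3, -0.22 to 0.00316 for Per3 and -0.045 to 0.13 for Rora. Of 1092 list medians under alternatives, 63 moved beyond their spread, in 20 of 52 lists.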
